A study of Rattus norvegicus with 12 samples.

Results

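MicroRNA genes were followed in rat kidneys after ischemia-reperfusion injury, that is, after blood flow to the organ was cut off for a time and let in again. They were taken from the array annotation as the rows with exactly 1 gene symbol made of Mir, a number of 1 to 3 digits and any letter or copy suffix. This gave 292 rows of 36685, each for a different gene, and so 292 of the 18166 genes tested. Symbols with 4 digits and the let-7 genes were left out. Mir182, Mir183 and Mir96, which lie side by side in the genome, were set against the other 289. Each of the 12 arrays held RNA of the kidney of a different rat, in 4 groups of 3: anti-miR-182 at day 2, placebo at day 2, anti-miR-182 at day 7 and placebo at day 7 after the injury. Anti-miR-182 is an inhibitor of the mature microRNA miR-182. All 4 groups had the injury, and no uninjured kidney was analysed here. Not given in the sources used here are the strain, age and sex of the rats and the dose, route and timing of the inhibitor. The groups follow the sample titles, although a description label calls the tissue a zero-hour biopsy.

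MicroRNAs are short RNAs that pair with messenger RNAs through their seed, a stretch near the 5′ end, and lower the stability or translation of those messages. Each is cut from a hairpin within a longer primary transcript, first by Drosha with Dgcr8 in the nucleus and then by Dicer1 in the cytoplasm, before it is loaded onto an Argonaute protein. Several hairpins can sit in a shared primary transcript, and many lie in introns of protein-coding genes. The microRNAs miR-183, miR-96 and miR-182 are known as a cluster of sensory organs and epithelia, and FOXO transcription factors are among the reported targets of miR-182. It is not stated whether a microRNA row of this whole-transcript array detects the mature form, the hairpin or the primary transcript.

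The mature sequences of the cluster are shown because the inhibitor is named after the first of them and because the 3 seeds are nearly alike. They are given 5′ to 3′ from RefSeq (GRCr8), with the seed, bases 2 to 8, in capitals.
rno-miR-182: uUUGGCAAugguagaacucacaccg
rno-miR-96-5p: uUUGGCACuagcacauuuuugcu
rno-miR-183-5p: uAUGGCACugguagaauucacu
Counted from 1 at the 5′ end, the seed of miR-96-5p differs from that of miR-182 by A8C, that of miR-183-5p differs from that of miR-182 by U2A and A8C, and miR-96-5p and miR-183-5p differ by U2A. None of the other microRNA genes with a mature sequence, 275 of the 292 in all, held the seed of miR-182. Over the whole mature sequence miR-182 had the same base as miR-183-5p at 18 of 22 positions and as miR-96-5p at 12 of 23.

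The hairpins are shown because a whole-transcript row may read the hairpin or its flanks. Mature sequences are in capitals.
Mir182 hairpin: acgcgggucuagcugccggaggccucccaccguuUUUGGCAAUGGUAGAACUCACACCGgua
Mir96 hairpin: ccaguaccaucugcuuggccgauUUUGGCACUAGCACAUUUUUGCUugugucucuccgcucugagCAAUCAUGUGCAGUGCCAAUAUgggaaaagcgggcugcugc
Mir183 hairpin: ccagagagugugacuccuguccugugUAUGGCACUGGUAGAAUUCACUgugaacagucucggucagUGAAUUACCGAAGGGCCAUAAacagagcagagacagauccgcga
In GRCr8 the hairpins lie on the minus strand of chromosome 4, with Mir182 at chr4:59752246-59752307, Mir96 at chr4:59755841-59755946 and Mir183 at chr4:59756044-59756153. The 3 hairpins span 3908 bases between the genes Nrf1 and Ube2h. Mir183 and Mir96 are 97 bases apart, while 3533 bases separate Mir96 from Mir182. On the opposite strand Mir3553 overlaps Mir183, and its symbol of 4 digits keeps it out of the 292.

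Array medians of the log2 signal ran from 5.98 to 6.10 at day 2 and from 5.84 to 5.93 at day 7, and the first principal component, with 51.9% of the variance, separated the days. Replicate 3 of the day 2 anti-miR-182 group stood off from the rest on the second component (-29.41, the others between -9.18 and 15.4). Of 8 kidney marker genes listed, 7 were measured, and those of proximal tubule and thick limb were bright in each array, with Umod between 11.19 and 11.95 and Lrp2 between 10.97 and 11.76. With 3 arrays a group, precision is limited by that number.

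The microRNA rows were dim. Their mean log2 signal ran from 2.10 for Mir376c to 8.33 for Mir345, with a median of 4.53 against 6.42 over all genes, and 201 of 292 (68.8%) were dimmer than 5.47, the lower quartile over all genes. Only 36 (12.3%) lay above the median of all genes. The SD within a group had a median of 0.18 for microRNA rows and 0.17 for all genes. These are signals of different probes and not amounts of RNA.

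Mir182, the gene of the inhibited microRNA, was brighter in the treated kidneys. Its log2 signal at day 2 was 6.42, 6.21 and 6.57 under anti-miR-182 and 4.84, 4.48 and 4.69 under placebo. At day 7 it was 5.63, 6.0 and 4.93 under anti-miR-182 and 4.32, 3.97 and 4.75 under placebo. The groups did not overlap on either day, with 4.93 against 4.75 as the nearest pair at day 7. The difference, anti-miR-182 minus placebo, was 1.73 ± 0.24 (log2, SE, n = 3 against 3, limma adjusted p = 0.0771) at day 2, or 3.31-fold. At day 7 it was 1.18 ± 0.24 (adjusted p = 0.999), or 2.26-fold. Over both days it was 1.45 ± 0.17 (n = 6 against 6, adjusted p = 0.0104), and Mir182 had the smallest unadjusted p of all 18166 genes in each of these 3 comparisons. The treatment difference at day 7 minus that at day 2 was -0.55 ± 0.34 (adjusted p = 0.999). In whole tissue more cells of a type and more RNA per cell cannot be told apart. Leaving out day 2 replicate 3 or day 7 replicate 1 of the anti-miR-182 arm, or day 2 replicate 2 or 3 of the placebo arm, ended the call over both days (limma adjusted p = 0.0706, 0.0606, 0.0597 and 0.055). The difference stayed between 1.33 and 1.6 over the 12 arrays left out in turn.

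**Figure D1:**
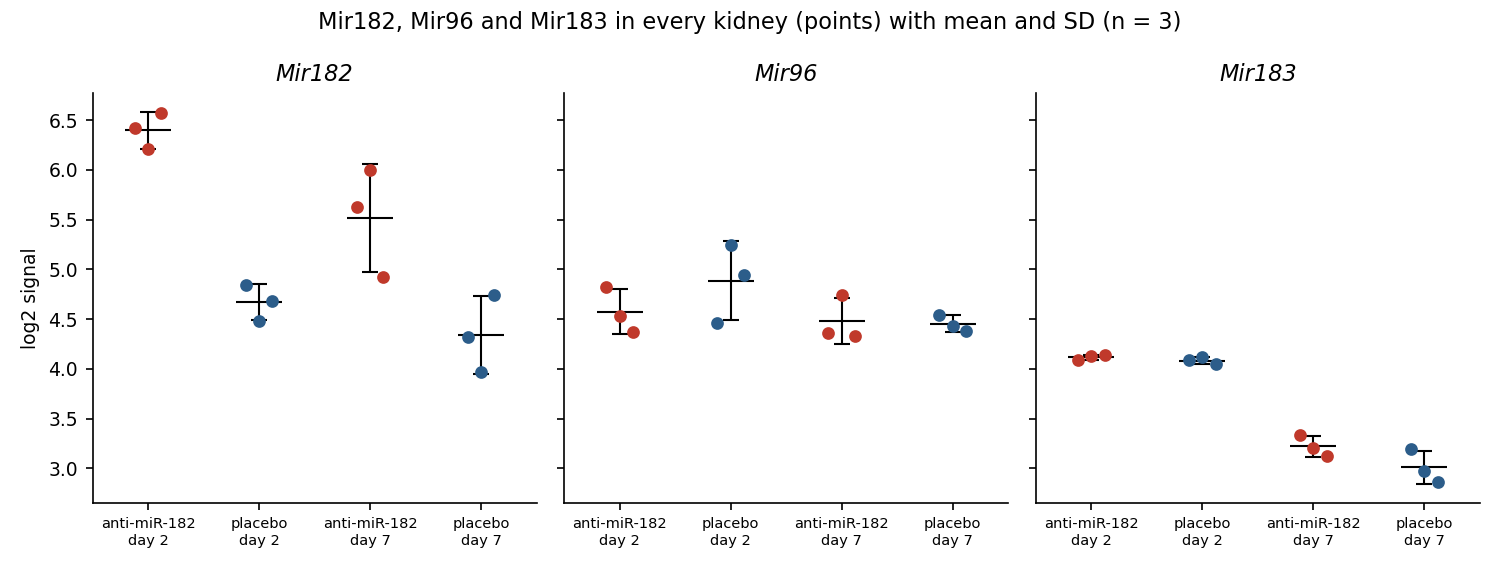
Log2 signal of Mir182, Mir96 and Mir183 in each kidney (points), with the group mean and SD (bars, n = 3), for the 4 groups on the horizontal axis. The 3 Mir182 values of each treated group lie above those of the placebo group of the same day, the Mir96 groups overlap on each day, and Mir183 is lower at day 7 than at day 2 in both arms.

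The neighbours of Mir182 did not share its difference. Mir183 had signals of 4.09, 4.13 and 4.14 under anti-miR-182 and 4.09, 4.12 and 4.05 under placebo at day 2. At day 7 they were 3.33, 3.21 and 3.12 under anti-miR-182 and 3.19, 2.97 and 2.87 under placebo. The groups overlapped on both days, and the treatment difference was 0.03 ± 0.11 (95% interval -0.20 to 0.27) at day 2 and 0.21 ± 0.11 (-0.02 to 0.45) at day 7. Quantile normalization and centring turned the sign of the day 2 value. For Mir96 the signals were 4.82, 4.54 and 4.37 under anti-miR-182 and 4.46, 5.25 and 4.94 under placebo at day 2, and 4.36, 4.74 and 4.33 against 4.55, 4.43 and 4.38 at day 7. These groups overlapped too, with differences of -0.31 ± 0.18 (-0.70 to 0.08) at day 2 and 0.03 ± 0.18 (-0.37 to 0.42) at day 7. Mir182 minus Mir183 was also taken within each array and compared between the arms. Its mean difference over the days, anti-miR-182 minus placebo, was 1.33 (exact permutation of treatment within days, two-sided, 400 arrangements, p = 0.01, adjusted over the 2 pairs p = 0.01). For Mir182 minus Mir96 it was 1.59 (same permutation, p = 0.005, adjusted p = 0.01). The smallest p that this design can give is 0.005.

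The genes on either side were measured too. Nrf1, a transcription factor of mitochondrial gene expression, differed by 0.06 ± 0.12 at day 2 and -0.06 ± 0.12 at day 7. Ube2h, a ubiquitin-conjugating enzyme, differed by -0.00 ± 0.11 and -0.19 ± 0.11. Mir3553, the hairpin gene on the strand opposite Mir183, differed by 0.08 ± 0.16 and -0.10 ± 0.16. In limma the smallest adjusted p of these 3 genes on either day was 0.941.

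Among all microRNA genes Mir182 was the 1 that passed for treatment. Limma called 0 of 292 at day 2, 0 at day 7 and 1 over both days (background 0%, 0% and 0.0055% of all genes). At an unadjusted p under 0.05 the counts were 25 at day 2 (8.56%, background 6.61%), 11 at day 7 (3.77%, background 3.26%) and 19 over both days (6.51%, background 5.27%). Of the 25, 22 were on the higher side (background 4.2%) and 3 on the lower side (background 2.41%). By any amount 213 of the 292 were higher in treated kidneys at day 2 (72.9%, background 58.7%), and the median difference was 0.09 against 0.03 over all genes. With quantile normalization the median was 0.04 against 0.01 over all genes, and with centring on the array median 0.03 against -0.03. At day 7 this held for 155 (53.1%, background 49.8%), and the median was 0.02 against -0.00 over all genes. The count of 25 was 14 and 15 without placebo day 2 replicates 2 and 3 and 43 without anti-miR-182 day 2 replicate 3. The count of 11 was 19 without placebo day 7 replicate 2, and that of 19 over both days was 9 and 31 without anti-miR-182 day 7 replicates 2 and 3.

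The differences of the other microRNA genes were small beside that of Mir182. They reached at most 0.68 (Mir344b-1) and -0.49 (Mir181b2) at day 2, and 0.59 (Mir186) and -0.46 (Mir200a) at day 7. Groups without overlap occurred in 42 genes with higher (14.4%, background 8.06%) and 7 with lower signals (2.4%, background 4.24%) at day 2. At day 7 they occurred in 11 with higher (3.77%, background 3.5%) and 5 with lower signals (1.71%, background 3.75%). Across the 289 other genes the differences of the separate days had a Pearson r of -0.03 and a Spearman rho of -0.00. That is a description across genes of the same arrays, which are not independent replicates.

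**Figure D2:**
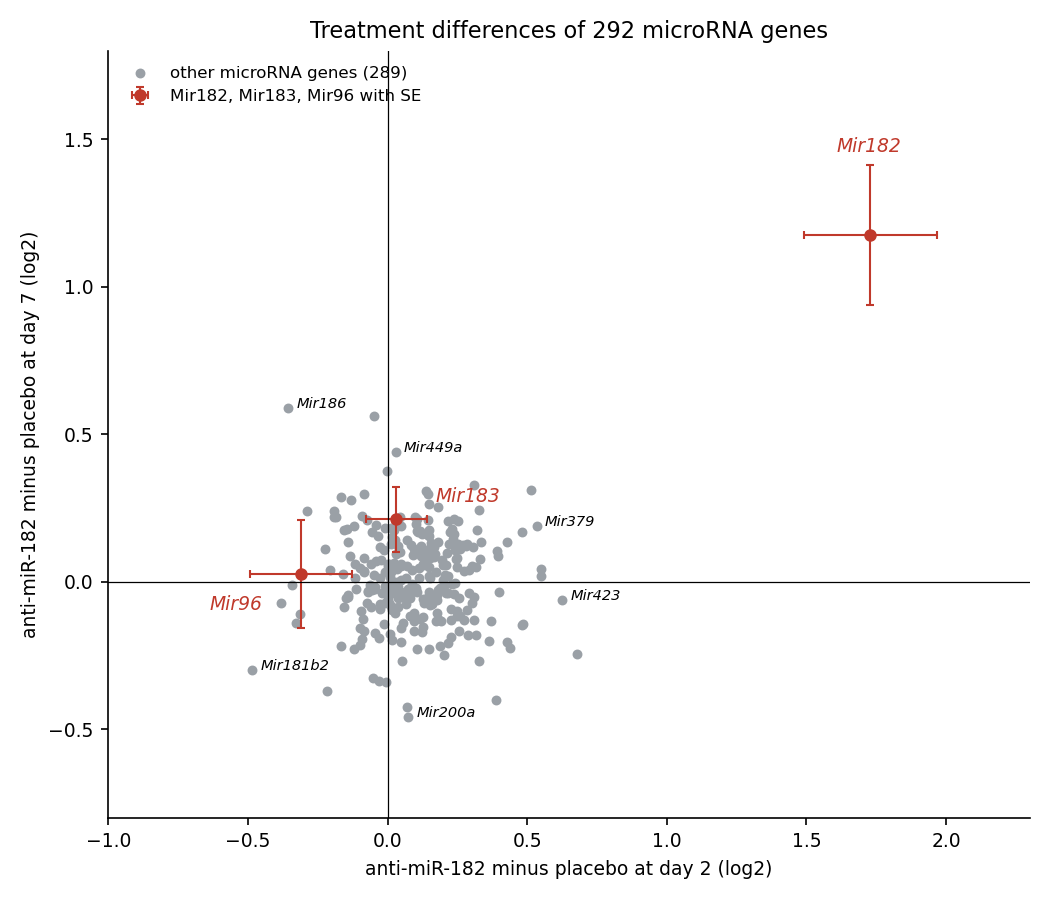
Difference anti-miR-182 minus placebo (log2) of each of the 292 microRNA genes at day 2 (horizontal) and day 7 (vertical), with Mir182, Mir183 and Mir96 in red with their SE. Mir182 at 1.73 and 1.18 stands away from the other genes, which lie between -0.49 and 0.68 at day 2 and between -0.46 and 0.59 at day 7.

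Besides Mir182, the genes Mir146b and Mir451a had higher signals in the treated arm without overlap on each day, both by small margins. Arms apart in the same direction on both days occurred in these 3 of 292 genes (1.03%) and in 82 of 18166 genes (0.451%). Mir146b, the gene of a microRNA induced by NF-kB that dampens inflammatory signalling, had signals of 4.97, 4.51 and 4.69 under anti-miR-182 and 4.45, 4.32 and 4.22 under placebo at day 2. At day 7 it had 4.51, 4.48 and 4.53 against 4.44, 4.36 and 4.47. All 6 treated kidneys lay above all 6 placebo kidneys, which among the 292 held also for Mir182 (background 0.055% of all genes, higher), yet the difference over both days, 0.24 ± 0.09, did not pass (limma adjusted p = 0.888). The nearest pair was 4.48 against 4.47. Mir451a, the gene of a microRNA of red blood cells that is cut by an Argonaute protein in place of Dicer, had 3.24, 3.45 and 3.22 against 3.02, 3.22 and 3.13 at day 2. At day 7 it had 3.04, 3.10 and 3.08 against 2.74, 2.88 and 2.84. Its arms stood apart within each day, with differences of 0.18 ± 0.11 and 0.25 ± 0.11, and did not pass over both days (0.22 ± 0.07, adjusted p = 0.888). The leukocyte marker Ptprc differed by 0.01 at day 2 and -0.39 at day 7, none of 4 measured markers of other cells passed for treatment, the globins were not matched, and the part of blood cells in these values was not tested.

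At day 2 the 4 genes with the smallest unadjusted p after Mir182 were Mir423, Mir379, Mir200c and Mir345, all higher under anti-miR-182. Mir423, which lies in the splicing regulator gene Nsrp1, had signals of 6.99, 7.21 and 6.81 against 6.34, 6.13 and 6.66, a difference of 0.63 ± 0.16. Mir200c, whose microRNA keeps epithelial cells epithelial by repressing Zeb factors, had 5.31, 5.32 and 5.24 against 4.75, 4.96 and 4.89, or 0.43 ± 0.12. Neither pair of groups overlapped, and neither difference passed in limma (adjusted p = 0.625 and 0.645). At day 7 the same genes gave -0.06 ± 0.16 and -0.20 ± 0.12. Their change of treatment difference between days, -0.69 ± 0.22 and -0.63 ± 0.17, did not pass either (adjusted p = 0.999 for both), and Nsrp1 differed by -0.15 ± 0.17 at day 2. Mir379, from the large imprinted microRNA cluster of chromosome 6, differed by 0.53 ± 0.15, and Mir345 by 0.55 ± 0.16. On the lower side the first 5 were Mir299 (-0.38), Mir181b2 (-0.49), Mir181a2 (-0.32), Mir186 (-0.36) and Mir154 (-0.22).

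Of these, Mir181b2 and Mir181a2 stand for microRNAs that tune antigen receptor signalling in lymphocytes. Mir181b2 had 6.04, 6.58 and 6.41 under anti-miR-182 and 6.61, 6.75 and 7.14 under placebo at day 2, without overlap. At day 7 it had 6.47, 6.21 and 6.47 against 6.65, 6.44 and 6.97, where the groups overlapped. Over both days the difference was -0.39 ± 0.13 (limma adjusted p = 0.888). The other copies differed at day 2 by -0.32 (Mir181a2), -0.13 (Mir181b1), -0.03 (Mir181c), 0.16 (Mir181a-1) and 0.26 (Mir181d), and differences between copies were not tested.

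At day 7 the genes nearest to the threshold were others. Mir449a, a gene of ciliated cells whose microRNA shares its seed with the miR-34 family, had 5.0, 5.17 and 5.21 under anti-miR-182 and 4.73, 4.71 and 4.63 under placebo, without overlap, a difference of 0.44 ± 0.11 (limma adjusted p = 0.999). Its day 2 difference was 0.03 ± 0.11. Mir200a, like Mir200c a gene of the epithelial miR-200 family, had 5.25, 4.75 and 4.83 against 5.38, 5.36 and 5.47, again without overlap and in the other direction, -0.46 ± 0.14. Mir186 lay at 5.82, 5.11 and 5.61 against 5.15, 4.77 and 4.85, with overlap, a difference of 0.59 ± 0.20 after -0.36 ± 0.20 at day 2. Its host gene Zranb2 differed by -0.06 ± 0.11 at day 7. The remaining genes named by rank were higher for Mir326 (0.38) and Mir98 (0.56), and lower for Mir150 (-0.43), whose microRNA marks mature lymphocytes, Mir139 (-0.34), Mir99b (-0.32) and Mir201 (-0.27). Over both days Mir293 (0.41), Mir379 (0.36) and Mir449a (0.23) followed Mir182 on the higher side, and Mir299 (-0.23), Mir872 (-0.30) and Mir200a (-0.19) were among the lower ones. None of these passed (adjusted p of at least 0.770).

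Genes of microRNAs that mark kidney epithelium gave 18 measured copies, of which 12 lay higher and 6 lower under anti-miR-182 at day 2 and 8 higher and 10 lower at day 7, with 0 called in limma on either day. Their median difference was 0.05 at day 2 and -0.03 at day 7, against 0.03 and -0.00 over all genes. Of the 292 microRNA genes 72.9% lay higher at day 2 and 53.1% at day 7, against 58.7% and 49.8% of all genes. Mir192 and its cluster partner Mir194-2, together with the second copy Mir194-1, belong to microRNAs enriched in kidney and gut. Mir192 had 4.51, 5.46 and 5.01 under anti-miR-182 and 4.38, 4.65 and 4.31 under placebo at day 2, with overlapping groups. Its difference was 0.55 ± 0.20, that of Mir194-1 was 0.44 ± 0.17 and that of Mir194-2 was 0.26 ± 0.18. At day 7 the 3 differences were 0.02, -0.23 and -0.17. Mir215, whose mature form has the seed of miR-192-5p, lay at -0.01 and -0.04. Within the miR-200 family Mir200c was higher at day 2 and Mir200a lower at day 7, as given above. The differences at day 2 and day 7 were -0.12 and 0.06 for Mir200b, -0.12 and -0.23 for Mir141 and -0.03 and -0.09 for Mir429. The tubule marker Umod differed by 0.37 ± 0.15 at day 2 and 0.01 ± 0.15 at day 7, and 0 of 7 kidney markers passed on either day.

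**Figure D3:**
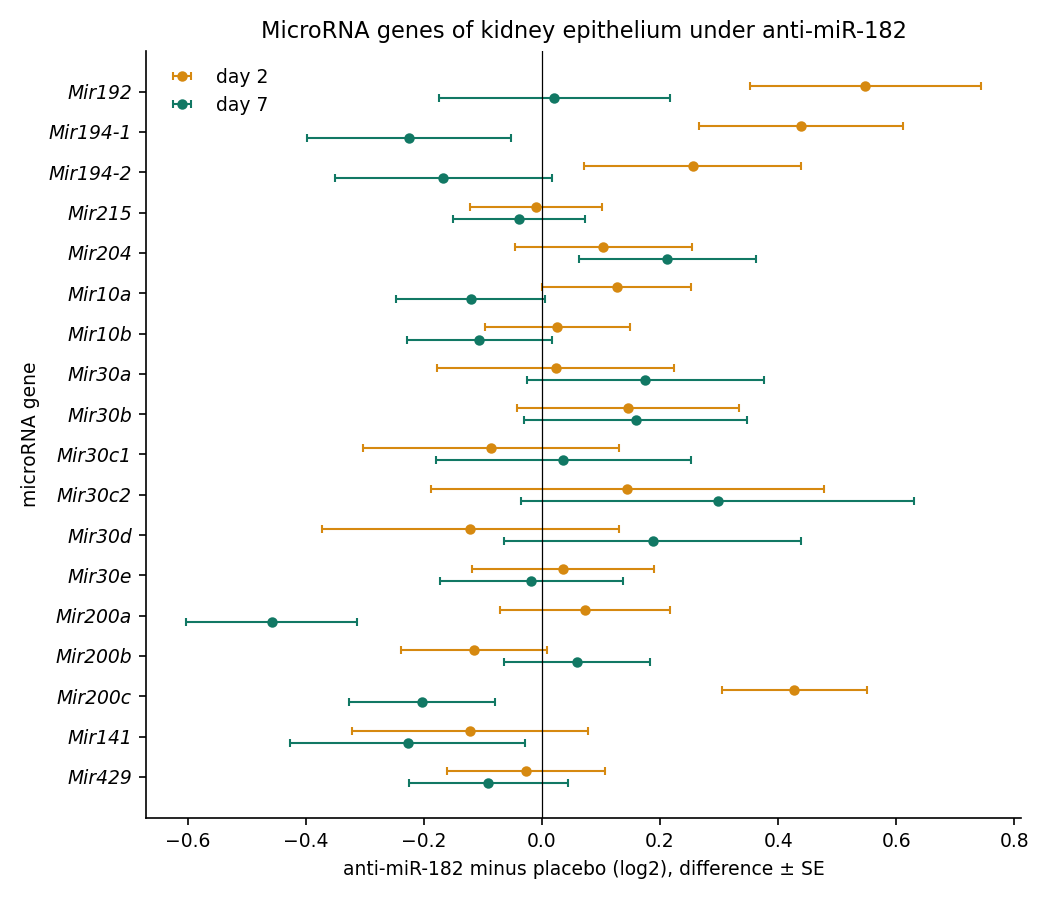
Difference anti-miR-182 minus placebo (log2, with SE) of the 18 microRNA genes of kidney epithelium at day 2 (orange) and day 7 (green). Mir192, Mir194-1 and Mir200c lie at 0.55, 0.44 and 0.43 at day 2 and at 0.02, -0.23 and -0.20 at day 7, and none of the 18 passed the adjusted threshold.

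MicroRNA genes studied in kidney injury and fibrosis had 19 measured copies, with 15 higher and 4 lower at day 2, 9 higher and 10 lower at day 7, and 0 called. Mir21, the best known of them, had 7.56, 6.62 and 6.74 under anti-miR-182 and 7.06, 7.39 and 7.45 under placebo at day 2, a difference of -0.33 ± 0.27, and -0.14 ± 0.27 at day 7. The largest differences at day 2 were 0.32 for Mir27b and -0.33 for Mir21. In the Mir17 cluster and its copies, which promote cell cycling, 9 of 13 lay higher at day 2 and 11 of 13 at day 7, with medians of 0.12 and 0.06, and Mir93 had the smallest unadjusted p (0.33 ± 0.15 at day 2). Leukocyte microRNA genes gave 7 higher and 4 lower at day 2 and 4 higher and 7 lower at day 7, and of 5 endothelial and smooth muscle genes 4 lay higher at day 2 and 2 at day 7. These 5 include Mir126a, which in RefSeq holds miR-126b. The gene Mir126b, which holds miR-126a-5p, was not on the list. Of 16 genes of liver, brain, muscle and pancreas microRNAs, 13 lay higher at day 2 and 10 at day 7. Limma called 0 members of these lists for treatment. Beside these counts, 72.9% of the 292 microRNA genes lay higher at day 2 and 53.1% at day 7, against 58.7% and 49.8% of all genes.

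The machinery that makes and uses microRNAs was measured through 27 of 30 listed genes, and 0 passed for treatment on either day. Drosha, the nuclear enzyme, differed by -0.26 ± 0.13 at day 2 and -0.04 ± 0.13 at day 7, and Dicer1 by -0.01 ± 0.11 and 0.05 ± 0.11. The helicase Mov10 had -0.26 ± 0.14 at day 2, and the let-7 regulator Lin28a had 0.27 ± 0.14. Of 17 measured genes reported as targets of miR-182, 10 lay lower at day 2, 13 at day 7 and 12 over both days, with medians of -0.04, -0.08 and -0.05 against 0.03, -0.00 and 0.01 over all genes, and 0 were called. Those with the smallest unadjusted p over both days were Cttn, a cortical actin protein (-0.22), the DNA repair gene Brca1 (-0.30), Cited2, a transcriptional coregulator (-0.19), and Pdcd4, a translation inhibitor (-0.22), all lower under anti-miR-182. The forkhead factors Foxo1 and Foxo3 differed by 0.06 ± 0.09 and -0.05 ± 0.09 over both days.

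From day 2 to day 7 many microRNA genes moved in both arms. Limma called 67 of 292 in placebo (22.9%, background 28%), 19 higher and 48 lower at day 7, and 67 under anti-miR-182 (22.9%, background 27.5%), 13 higher and 54 lower. The deposited values of all genes were themselves lower at day 7, with a median shift of -0.18 in placebo and -0.21 under anti-miR-182. Quantile normalization of all arrays gave 28 higher and 14 lower in placebo and 25 higher and 20 lower under anti-miR-182, and centring gave 26 and 17, and 22 and 16. The split into higher and lower therefore depends on the scaling, and the days may have been normalized apart, so that day and processing run cannot be told apart. Time differences below are therefore given relative to the median of all genes of that arm, except where stated. Adjusted p-values beside them belong to the differences as deposited, except where another setting is named. Called higher were 4.22% of all genes in placebo and 2.68% under anti-miR-182, and called lower 23.7% and 24.9%. The count in placebo was 35, 37 and 40 without placebo day 2 replicates 1, 2 and 3, and 36, 43 and 40 without placebo day 7 replicates 1, 2 and 3. Under anti-miR-182 it was 42 without day 2 replicate 2, and 40 and 39 without day 7 replicates 1 and 3 of that arm.

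Of the 67 genes called in each arm 41 were called in both (61.2% of each), and these 41 had the same direction in each arm. Over all genes the shares called in both were 64.7% of the calls in placebo and 65.8% of those under anti-miR-182, all 3289 in the same direction. With quantile normalization and with centring 16 of the 41 were called in both arms under each scaling. The 9 that rose were Mir122, Mir223, Mir30b, Mir496, Mir511, Mir598, Mir668, Mir7-1 and Mir761, and the 7 that fell were Mir137, Mir140, Mir183, Mir26a, Mir8, Mir873 and Mir875. The time difference minus the same difference in the other arm, which is the treatment difference at day 7 minus that at day 2, called 0 of 292 (16 at an unadjusted p under 0.05, 5.48%, background 3.92%). A gene called in 1 arm and not in the other is therefore not shown to differ between arms.

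**Figure D4:**
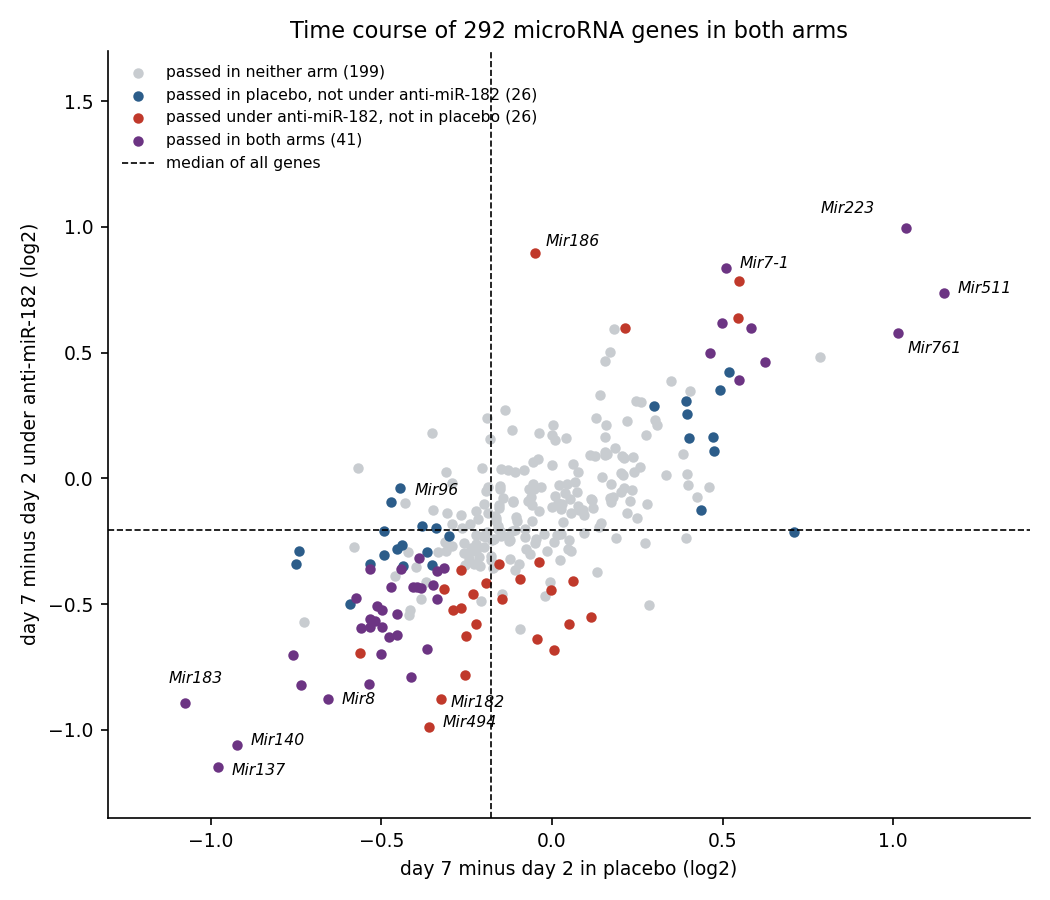
Difference day 7 minus day 2 (log2, as deposited) of each of the 292 microRNA genes in placebo (horizontal) and under anti-miR-182 (vertical), coloured by the arm in which limma called the gene. Dashed lines mark the median of all genes in each arm, -0.18 and -0.21; the 41 genes called in both arms lie at the lower left or the upper right.

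Within the cluster on chromosome 4 Mir183 was the member called with time in both arms, and time courses were not tested against each other between members. Mir183 fell in both arms, by 0.90 on the log2 scale in placebo relative to the median of all genes (-1.07 ± 0.11 as deposited, limma adjusted p = 7.7e-05) and by 0.69 under anti-miR-182 (-0.90 ± 0.11 as deposited, adjusted p = 0.000217). All 6 kidneys of day 2 had a Mir183 signal of at least 4.05, and all 6 of day 7 had at most 3.33. Mir182 fell under anti-miR-182, by 0.67 relative to all genes (-0.88 ± 0.24 as deposited, adjusted p = 0.0163). That call was lost with quantile normalization (adjusted p = 0.0513), with centring (0.058) and without anti-miR-182 day 7 replicate 3 (0.0683). In placebo Mir182 stood at -0.15 relative to all genes (-0.33 ± 0.24 as deposited, adjusted p = 0.318). Mir96 stood at -0.25 in placebo (-0.43 ± 0.18 as deposited, limma adjusted p = 0.091) and at 0.11 under anti-miR-182. The Mir96 difference in placebo passed with array weights (limma adjusted p = 0.0409) and without placebo day 2 replicate 1 (0.0228). The opposite-strand Mir3553 stood at 0.47 and 0.32, without a call.

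Mir511, Mir223 and Mir761 had the largest rises in placebo. Of 11 leukocyte microRNA genes listed and measured, Mir223 alone was called higher, in both arms, and Mir511 is not on that list. Mir223, a microRNA gene of neutrophils and other myeloid cells, had signals of 4.52, 4.65 and 4.66 at day 2 and 5.07, 6.6 and 5.26 at day 7 in placebo. Under anti-miR-182 it had 4.71, 4.80 and 4.80 at day 2 and 6.12, 5.50 and 5.69 at day 7. No day 7 kidney overlapped the day 2 kidneys of its arm. The rise of Mir223 relative to all genes was 1.22 in placebo (1.04 as deposited, limma adjusted p = 0.0185). Under anti-miR-182 it was 1.20 (0.996 as deposited, adjusted p = 0.0224). Mir511, which lies in the macrophage mannose receptor gene Mrc1, had 3.33, 3.51 and 3.55 at day 2 and 4.32, 5.37 and 4.15 at day 7 in placebo. Under anti-miR-182 it had 3.58, 3.52 and 3.97 at day 2 and 4.56, 4.21 and 4.51 at day 7. The days did not overlap in either arm, and Mir511 rose by 1.33 and 0.94 relative to all genes (1.15 and 0.74 as deposited, adjusted p = 0.00469 and 0.0382). Mrc1 itself rose as deposited by 1.84 ± 0.28 in placebo and by 0.91 ± 0.28 under anti-miR-182 (adjusted p = 0.000775 and 0.0292). Placebo day 7 replicate 2 was the highest array for both microRNA genes. The leukocyte marker Ptprc had 8.61 to 8.80 at day 2 and 8.91 to 9.71 at day 7 in placebo, and 8.56 to 8.90 and 8.68 to 9.08 under anti-miR-182, a rise of 0.61 as deposited in placebo (adjusted p = 0.0209) and a difference of 0.21 under anti-miR-182 (0.381). Its part in these rises was not tested.

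The calls of Mir223 and Mir511 were not equally firm. With the animal number in the titles as covariate Mir223 lost its call in both arms (adjusted p = 0.146 and 0.167) and Mir511 under anti-miR-182 (0.154). That covariate splits the rats into high and low numbers. Every day 2 rat had a high number, but only 1 day 7 rat of each arm did. The covariate therefore overlaps with day, and calls with time lost under it do not show how firm they are. In placebo Mir223 was lost without placebo day 2 replicate 1 (0.0585). Under anti-miR-182 Mir223 was lost without day 2 replicate 1 (0.0503) or 2 (0.059) or day 7 replicate 1 (0.0889) or 3 (0.0503), and Mir511 without the same arrays (0.0886, 0.123, 0.109 and 0.103) or placebo day 2 replicate 2 (0.0505). Testing every row also ended both calls under anti-miR-182 (0.0501 and 0.0746). Other leukocyte genes were below the threshold or moved otherwise: Mir142 stood at 0.21 and -0.04 as deposited, Mir150 at 0.46 and -0.04, and Mir146a fell under anti-miR-182 by 0.40 as deposited (adjusted p = 0.0481).

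Mir183, Mir137 and Mir140 had the largest falls in placebo, and Mir137, Mir140 and Mir494 under anti-miR-182. Mir140, known from cartilage and located in the ubiquitin ligase gene Wwp2, had 5.75, 5.78 and 5.85 at day 2 and 4.79, 4.99 and 4.84 at day 7 in placebo. Under anti-miR-182 it had 5.90, 6.20 and 5.6 at day 2 and 4.75, 4.98 and 4.79 at day 7. Mir137, known from neurons, had 4.26, 3.92 and 4.09 at day 2 and 3.02, 3.22 and 3.09 at day 7 in placebo, and 4.20, 4.59 and 4.21 against 3.18, 3.20 and 3.18 under anti-miR-182. The days were far apart in both genes. Relative to all genes Mir140 fell by 0.74 and 0.86 (-0.92 and -1.06 as deposited, limma adjusted p = 0.000672 and 0.000285). Mir137 fell by 0.80 and 0.94 (-0.98 and -1.15 as deposited, adjusted p = 0.000283 and 0.00013). Both calls, like those of Mir183, held in both arms under each alternative that tested the row.

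The other genes named by size fell or rose in 1 arm or both. In placebo Mir125b2 (-0.58), Mir196b (-0.57) and Mir325 (-0.56) fell, and Mir761 (1.19), Mir344b-1 (0.89), Mir122 (0.80) and Mir30b (0.76) rose relative to all genes. Mir122, the liver microRNA gene, had 4.88 to 5.36 at day 2 and 5.57 to 6.0 at day 7 in placebo. Under anti-miR-182 Mir494 (-0.78) and Mir8 (-0.67) fell, and Mir186 (1.10), Mir7-1 (1.04), Mir29b2 (0.99) and Mir24-1 (0.84) rose. Several of these calls were lost when 1 array was left out. Mir196b in placebo was lost without each of the 6 placebo arrays in turn or without anti-miR-182 day 7 replicate 2 (adjusted p from 0.0526 to 0.118), and with both other scalings. Mir30b in placebo was lost without each placebo array except day 2 replicate 2 (0.0668 to 0.127), with the animal number as covariate (0.146) and with array weights (0.0571). Mir344b-1 in placebo was lost without placebo day 2 replicate 2 or 3, placebo day 7 replicate 2 or 3, any of the 3 day 2 arrays of anti-miR-182 or day 7 replicate 1 of that arm (0.0555 to 0.185). With the animal number as covariate its value was 0.34 in place of 0.71 as deposited (adjusted p = 0.382), and robust eBayes also ended the call (0.0521). Mir122 was lost without placebo day 2 replicate 1 (0.0622) or day 7 replicate 1 (0.0575). Under anti-miR-182 Mir24-1 was lost without day 2 replicate 1 or 3 or day 7 replicate 2 or 3 of that arm, or placebo day 2 replicate 1 or 2 or day 7 replicate 1 or 3 (0.0505 to 0.195), and with array weights its value was 0.37 in place of 0.64 as deposited (0.237). Mir29b2 was lost without day 2 replicate 1 or day 7 replicate 2 or 3 of its own arm (0.0665 to 0.0825), with array weights (0.111) and with the animal number as covariate (0.0628). Testing every row ended the calls of Mir196b, Mir344b-1, Mir30b and Mir24-1 (0.0693 to 0.096). Because the animal number overlaps with day, as said above, the losses of Mir30b, Mir344b-1 and Mir29b2 under that covariate do not show how firm these calls are.

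**Figure D5:**
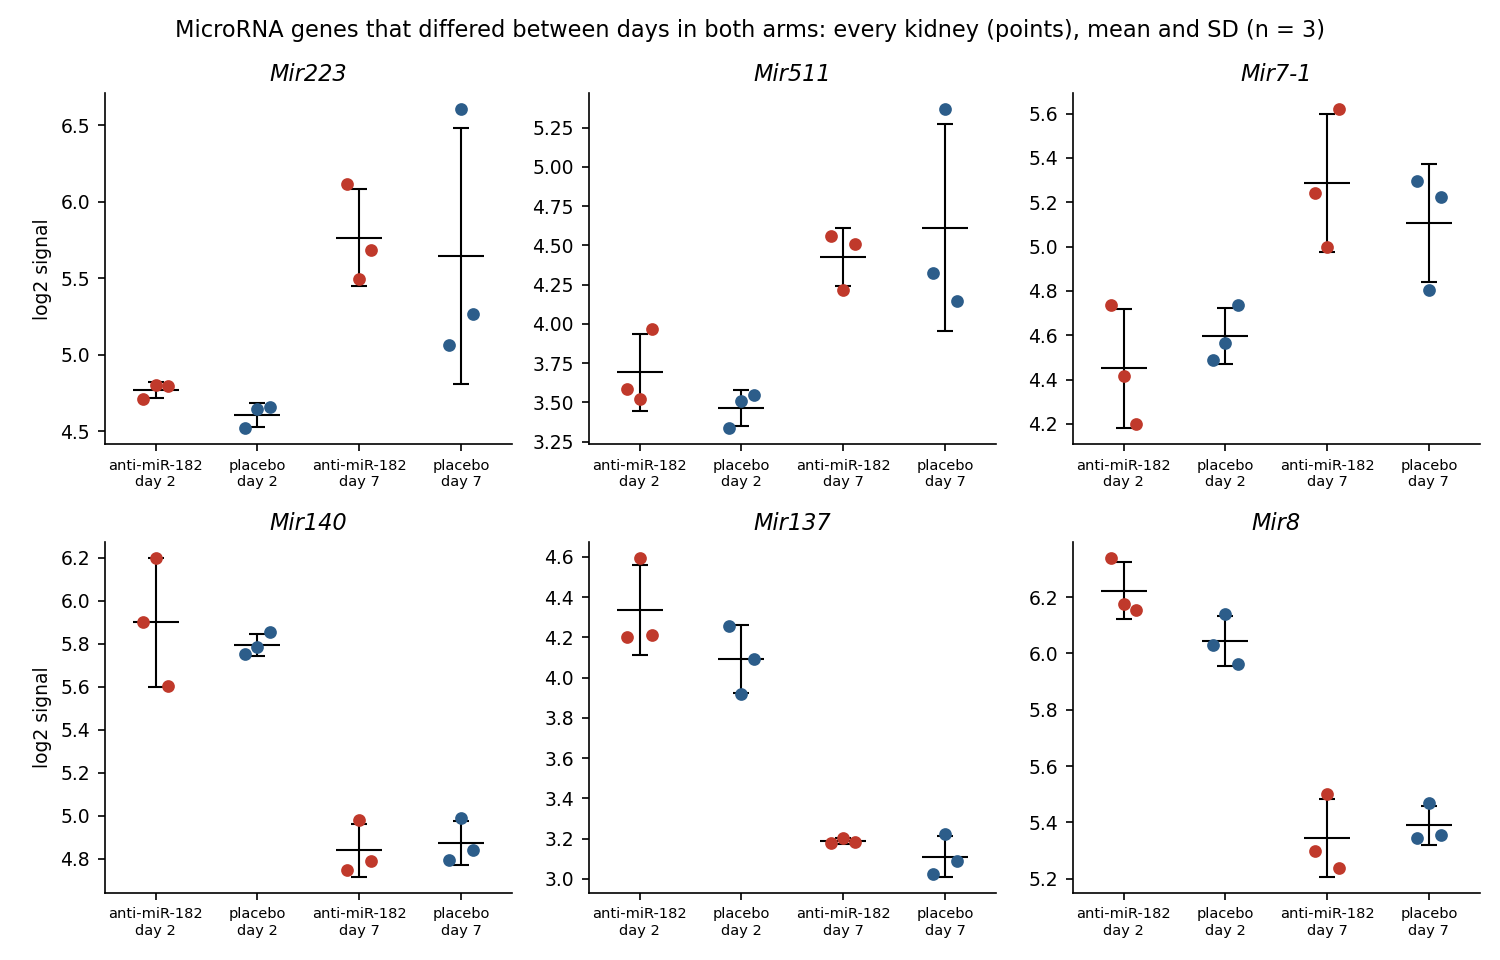
Log2 signal of 6 microRNA genes called in both arms, in each kidney (points), with the group mean and SD (bars, n = 3); vertical axes differ between panels and do not start at 0. Mir223, Mir511 and Mir7-1 are higher at day 7 than at day 2, and Mir140, Mir137 and Mir8 are lower, with no overlap of the days within an arm.

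A mature microRNA made from different hairpins gave rows that went opposite ways. In RefSeq the gene with the symbol Mir8 holds miR-7a-5p, and so does Mir7-1, while the symbol Mir9 holds miR-7b. These sequences are shown because the rows name different hairpins for the same or a related mature form. Capitals mark the seed in the first pair and the mature sequences in the hairpins.
rno-miR-7a-5p: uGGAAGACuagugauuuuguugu
rno-miR-7b: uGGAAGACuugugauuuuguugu
Mir8 hairpin: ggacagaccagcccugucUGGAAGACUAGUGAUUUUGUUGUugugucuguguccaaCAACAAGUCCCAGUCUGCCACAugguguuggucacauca
Mir7-1 hairpin: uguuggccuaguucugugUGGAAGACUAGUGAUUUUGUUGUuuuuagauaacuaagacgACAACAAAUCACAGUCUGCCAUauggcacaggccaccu
Mir8 lies on chromosome 1 at chr1:142215800-142215894 and Mir7-1 on chromosome 17 at chr17:6278692-6278788 (GRCr8, plus strand). Mir8 had 6.03, 6.14 and 5.96 at day 2 and 5.34, 5.47 and 5.36 at day 7 in placebo, and 6.34, 6.18 and 6.15 against 5.30, 5.50 and 5.24 under anti-miR-182. Mir7-1 had 4.49, 4.57 and 4.74 at day 2 and 5.30, 4.80 and 5.22 at day 7 in placebo, and 4.74, 4.41 and 4.20 against 5.24, 5.0 and 5.62 under anti-miR-182. The days did not overlap in either gene. Mir8 fell by 0.48 and 0.67 relative to all genes (-0.66 and -0.88 as deposited, limma adjusted p = 0.00132 and 0.000231). Mir7-1 rose by 0.69 and 1.04 (0.51 and 0.84 as deposited, adjusted p = 0.0484 and 0.0052). Mir9, the gene of miR-7b, stood at 0.04 and -0.02 as deposited. The treatment differences of Mir8 were 0.18 and -0.04 and those of Mir7-1 were -0.15 and 0.18 at day 2 and day 7.

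Host genes were measured for 76 of the 145 microRNA genes that lie inside a gene on the same strand. In placebo limma called 16 of these members and 22 of the hosts with time, and 19 and 18 under anti-miR-182. Over all genes 28% were called in placebo and 27.5% under anti-miR-182, most of them lower (23.7% and 24.9%). In placebo 7 pairs had both rows called, 6 of them in the same direction as deposited, and under anti-miR-182 4 pairs, 3 in the same direction. Mir140 and Wwp2 both fell in placebo (-0.92 and -0.41 as deposited), as did Mir26a with its host, the phosphatase gene Ctdspl (-0.74 and -0.38), Mir26b with Ctdsp1 (-0.49 and -0.70), Mir301a with Ska2 (-0.37 and -0.78) and Mir592 with the glutamate receptor gene Grm8 (-0.32 and -1.05). Mir511 and Mrc1 both rose, as above. The pair that went apart in placebo was Mir338, which fell (-0.57), and its host Aatk, a neuronal kinase gene, which rose (0.30). Under anti-miR-182 it was Mir761, which rose by 0.58, and the protease gene Nrdc (-0.48). Across the 76 pairs the time differences had a Pearson r of 0.18 in placebo and -0.07 under anti-miR-182, and the treatment differences 0.01 at day 2 and 0.16 at day 7, as a description of these arrays.

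The lists showed the time course as follows, in values as deposited, where 4.22% of all genes were called higher and 23.7% lower in placebo, and 2.68% and 24.9% under anti-miR-182. Of 18 genes of kidney epithelium limma called 1 higher and 2 lower in placebo and 1 higher and 4 lower under anti-miR-182. Mir30b was the higher gene in both arms, and Mir215 (-0.34 and -0.37) fell in both, while Mir200b (-0.44) fell in placebo and Mir192 (-0.78), Mir194-1 (-0.55) and Mir200c (-0.58) fell under anti-miR-182. Of 19 genes of kidney injury and fibrosis 3 rose and 1 fell in placebo, namely Mir199a2 (0.47), Mir29c (0.47), Mir214 (0.40) and Mir210 (-0.35). Under anti-miR-182 2 rose and 3 fell: Mir29b2 (0.78), Mir24-1 (0.64), Mir24-2 (-0.52), Mir210 (-0.42) and Mir212 (-0.42). Mir210 is the microRNA gene of hypoxia and Mir214 with Mir199a2 a transcript of mesenchymal cells. Mir21 stood at 0.14 ± 0.27 and 0.33 ± 0.27, without a call. Of 16 genes of liver, brain, muscle and pancreas microRNAs limma called 1 higher and 5 lower in placebo. Under anti-miR-182 it called 1 higher and 3 lower. Among them the muscle genes Mir133a1 and Mir133b fell in both arms (-0.52 and -0.57, and -0.50 and -0.70). The muscle gene Mir206 stood at 0.13 and 0.09, without a call. In the Mir17 group 1 rose and 2 fell in placebo and 1 fell under anti-miR-182, and 0 of 5 endothelial and smooth muscle genes passed in either arm.

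Of the 27 processing and silencing genes 8 fell (29.6%, against 23.7% of all genes in placebo and 24.9% under anti-miR-182) and 0 rose in each arm. Ran, the small GTPase that carries hairpins out of the nucleus with Xpo5, fell by 0.83 and 0.65 on the log2 scale as deposited, the Argonaute gene Ago3 by 0.67 and 0.54, the nuclease Parn by 0.57 and 0.50, and Cnot1, the scaffold of the deadenylase complex, by 0.42 and 0.57. Dicer1 fell by 0.34 in placebo (limma adjusted p = 0.036) and stood at -0.28 under anti-miR-182 (0.0731), while Drosha stood at -0.22 and -0.00. The medians of these genes, -0.21 in both arms, lay next to those of all genes, -0.18 and -0.21. Of the 17 reported targets of miR-182, 5 fell in placebo (29.4%, against 23.7% of all genes) and 8 under anti-miR-182 (47.1%, against 24.9%), among them Brca1 (-1.02 and -0.63), the circadian gene Clock (-0.87 and -0.91) and Cttn (-0.51 and -0.53), with medians of -0.18 and -0.32.

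The imprinted microRNA region of chromosome 6, between its outermost members at chr6:134298084-134579838 (GRCr8), held 44 of the genes with a hairpin or mature position. Treated kidneys had the higher mean in 34 of these at day 2, with a median of 0.11 and a range from -0.38 to 0.53. At day 7 they had it in 23, with a median of 0.03. Of all 292 microRNA genes 72.9% were higher at day 2 and 53.1% at day 7, against 58.7% and 49.8% of all genes. Limma called 0 of the 44 for treatment on either day. With time 4 rose and 9 fell in placebo (against 4.22% and 23.7% of all genes) and 3 rose and 12 fell under anti-miR-182 (against 2.68% and 24.9% of all genes), as deposited. Mir496 rose in both arms (0.68 and 0.83 relative to all genes), as did Mir668 (0.73 and 0.60), while Mir494 stood at -0.18 in placebo and fell by 0.78 under anti-miR-182.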

How the data were processed

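The 12 arrays were deposited as 1 table of log2 values, for which the submitters' processing notes name RMA; the version of RMA was not given in the sources used here. Per the labels, kidney was kept in RNAlater, and 200 ng of its Trizol-extracted total RNA was amplified with a biotin label. The deposited log2 values were used as they are. On the day 2 arrays 190 rows were empty and the distributions of the days differ, so the days may have been normalized apart. Symbols came from the platform annotation, sequences and positions from RefSeq (GRCr8): 263 of 292 members matched a hairpin and 275 a mature sequence.

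Means of the 4 groups were fitted to 18166 genes in limma 3.58.1 (R 4.3.3), taking the brightest row of each gene, eBayes and Benjamini-Hochberg adjustment over all genes; a call is an adjusted p under 0.05. Differences are anti-miR-182 minus placebo or day 7 minus day 2. Mir182 was also set against Mir183 and Mir96 by exact permutation. Clusters join members within 10 kb on a strand. Limma p-values set a difference against the spread between the animals of a group, moderated over all genes. In comparisons of days that difference may include processing.

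The members and gene lists were chosen with earlier results of these data known. Genes named are Mir182, Mir183 and Mir96, the 5 smallest unadjusted p in each direction of a treatment comparison, the 6 largest called rises and falls of a time comparison, up to 4 of each list and their hosts and neighbours. Mir146b, Mir451a, Mir9, Mir496, Mir668 and the genes called under each scaling were named after their values were seen. The fit was tested on simulated data. The fit was repeated within single days, with trended or robust eBayes, weighted arrays, a filter on the dimmest 25% or 50% of genes, quantile normalization or centring, averaged or separate rows, the title's animal number (above or below 90) as a covariate, a threshold of 0.1, and without single arrays.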

Additional observations from a re-analysis of the deposited data

Results flagged for a closer look

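Mir300, a gene of the imprinted microRNA region of chromosome 6, was picked out because its treatment groups did not overlap on either day and lay in opposite directions. At day 2 its log2 signal was 2.42, 2.48 and 2.55 under anti-miR-182 and 2.76, 2.65 and 2.59 under placebo, a difference of -0.18 ± 0.11. At day 7 it was 2.35, 2.53 and 2.45 against 2.24, 2.08 and 2.34, a difference of 0.22 ± 0.11. In limma the change between days was 0.40 ± 0.15 (unadjusted p = 0.0185, adjusted p = 0.999) and did not pass. It was the 1 microRNA gene of 292 with this pattern (0.342%), against 52 of 18166 genes (0.286%), and the lowest gene mean on the array was 2.10.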

How the results depend on the processing

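The days may have been processed apart, microRNA rows are dim, and 3 kidneys a group leave wide intervals, so smaller treatment differences may be missed. No paired analysis was possible because the labels give animal codes and no replicate numbers shared between groups. The count of microRNA genes called at day 2 was 1 in place of 0 with each day fitted alone, with array weights, with the animal number as covariate and at an adjusted p under 0.1, and 0 to 1 with an array left out. The count over both days was 0 in place of 1 with the dimmest 25% or 50% of genes left out, which removes Mir182, and with every row tested, and 0 to 1 with an array left out. Mir182 over both days kept its difference of 1.45 with every row tested but not its call (limma adjusted p = 0.186), and ranged from 1.33 to 1.6 (adjusted p from 0.000664 to 0.0706) with an array left out. The count with time in placebo was 20 and 6 without the dimmest 25% and 50% (91 and 36 microRNA genes tested), 42 with quantile normalization, 43 with centring, 38 with every row, 39 with the animal number, and 35 to 72 with an array left out. Under anti-miR-182 it was 18 and 8 without the dimmest 25% and 50%, 38 with centring, and 39 to 70 with an array left out. Signs turned for values near 0: Mir183 at day 2 (-0.033 with quantile normalization and -0.028 with centring), Mir96 at day 7 (-0.0082 with array weights and -0.107 to 0.098 with an array left out, -0.107 without anti-miR-182 day 7 replicate 2 and -0.011 without placebo day 7 replicate 3), and Mir96 with time under anti-miR-182 (0.044 with quantile normalization, 0.077 with centring and -0.229 to 0.025 with an array left out, 0.025 without anti-miR-182 day 2 replicate 1). Because the animal number overlaps with day, the count of 39 in placebo does not show how firm the calls with time are. Fitting each day alone gives no value over both days. The cause of these changes was not tested.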

Other observations

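Signal rose with the base composition of the hairpin. Over 263 microRNA genes with a hairpin sequence the mean log2 signal and the GC share of the hairpin had a Pearson r of 0.56 and a Spearman rho of 0.57, while hairpin length gave 0.11 and 0.13. The differences with treatment were less tied to it, with r of 0.18 at day 2 and -0.05 at day 7, as were those with time, with r of -0.02 in placebo and -0.16 under anti-miR-182. These are descriptions over probes read on the same arrays.

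The 497 mature sequences of 275 genes held 406 seeds, of which 62 were held by more than 1 gene. With time, 3 of these 62 seeds had more than 1 gene called in the same direction in placebo and 3 under anti-miR-182, as deposited and each with both of its 2 genes lower. In placebo these were Mir26a with Mir26b, Mir133a1 with Mir133b, and Mir326 with Mir330. Under anti-miR-182 they were Mir133a1 with Mir133b, Mir192 with Mir215, and Mir377 with Mir672. As deposited, 16.4% of the 292 genes and 23.7% of all genes were called lower in placebo, and 18.5% and 24.9% under anti-miR-182. In the seed of miR-17 and miR-20a, held by 6 genes, and in that of miR-181a-5p, held by 5, no gene was called with time in either arm. The same held for the 5 genes of the miR-34 and miR-449 seed. All 5 were higher in treated kidneys at day 2, by 0.03 to 0.08, below the median of 0.09 over the 292 genes. At day 7 3 of the 5 were higher. Of the 292 genes 72.9% were higher at day 2 and 53.1% at day 7, against 58.7% and 49.8% of all genes. In the miR-125 seed Mir125b2 fell in both arms as deposited and Mir125a and Mir351 were not called.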
